A study of Bos indicus with 12 samples.

Results

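ATP-binding cassette (ABC) transporters were examined on day 18 in the corpus luteum (CL) of cows that were pregnant (P) or not (NP). The members are the genes whose symbol is ABC followed by a subfamily letter from A to G and a number, which gave 31 of the 15178 genes with a row in the table. The rule uses symbols and no measured value, but it was set with earlier results of these data known. Of the 31 genes, 29 had a normalized count of at least 30 in at least 1 cow and were tested, and 2 (ABCC6 and ABCG1) stayed below that level.

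The animals were multiparous, non-lactating Bos indicus cows whose ovulation had been synchronized for timed insemination, and P cows were chosen by an elongated embryo in the uterine flush together with interferon-stimulated gene expression and serum progesterone. Cows were sampled once, 6 from the P group and 6 from the NP group, and each gave 1 library of poly-A RNA. The study's methods describe both inseminated cows and a cyclic group without insemination, and the labels of the NP cows give only their status. Each P and each NP value therefore comes from a different animal, and the whole CL was extracted, with its steroidogenic, endothelial, mural, stromal and immune cells together.

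ABC proteins use ATP to move lipids, conjugated metabolites, peptides or metal-containing cofactors across membranes, and a few of them, in subfamilies E and F, have no membrane domain and work on ribosomes. The CL takes up lipoprotein cholesterol to make progesterone, and sterol exporters of the A and G subfamilies, driven by oxysterol-sensing liver X receptors, return the surplus to apolipoproteins. Prostaglandins reach their receptors after leaving the cell in which they were made, partly through ABCC exporters, and very long chain fatty acids enter peroxisomes through subfamily D.

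Reads recovered from the normalized counts (counts divided by the size factor of each library) came to 6148184 to 8253360 per NP library and 2038858 to 7534503 per P library. The 3 shallowest libraries were all P, from cows 01, 18 and 28, and values without them are given beside each called member. Luteal steroidogenic markers summed to 160300 to 290800 normalized counts in NP and 200400 to 284200 in P, and limma called none of 7 (1 at an unadjusted p under 0.05, 1 by DESeq2), so the labelled tissue carried its defining transcripts in every cow. Of the other marker lists, 2 of 8 endothelial genes (PECAM1 and CDH5) were lower in P, 3 of 8 mural genes were higher and 2 lower, and 3 of 7 leukocyte genes were higher (summed 328 to 638 in NP and 451 to 983 in P). By the same test 12% of all tested genes were higher and 14.8% lower. Of 6 fibroblast genes, PDGFRA was higher and LUM lower. HBB, the 1 erythroid gene tested, was higher (erythroid sum 3.28 to 17.6 in NP and 13.03 to 47.8 in P). HBB reached the level needed for testing in P cows alone (highest 39.5 normalized counts, against 15.1 in NP). Its entry into the test thus depended on the group found higher. No marker was at 0 in all cows, and the part of these cell types in the results was not tested.

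A gene was called when limma on log2(normalized count + 1) gave a Benjamini-Hochberg adjusted p below 0.05 over 11907 genes and the log2 fold change, P minus NP, was at least 0.58 in size. Of the 29 tested ABC genes, 9 were called (31%), against 26.8% of all tested genes. In P compared to NP, 4 rose (ABCA2, ABCA7, ABCC3 and ABCC5), or 13.8% against 12% of all genes, and 5 fell (ABCA1, ABCC9, ABCE1, ABCF2 and ABCG2), or 17.2% against 14.8% of all genes. The values of the 6 P and 6 NP cows did not overlap for 4 members (13.8%), ABCC5, ABCE1, ABCF2 and ABCF3, against 13.6% of all tested genes. These shares lie near the background, so the results lie in the single genes and not in the family as a whole. The median log2 fold change was 0.25 over the 29 members, 17 of them positive, and -0.01 over all tested genes.

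**Figure D1:**
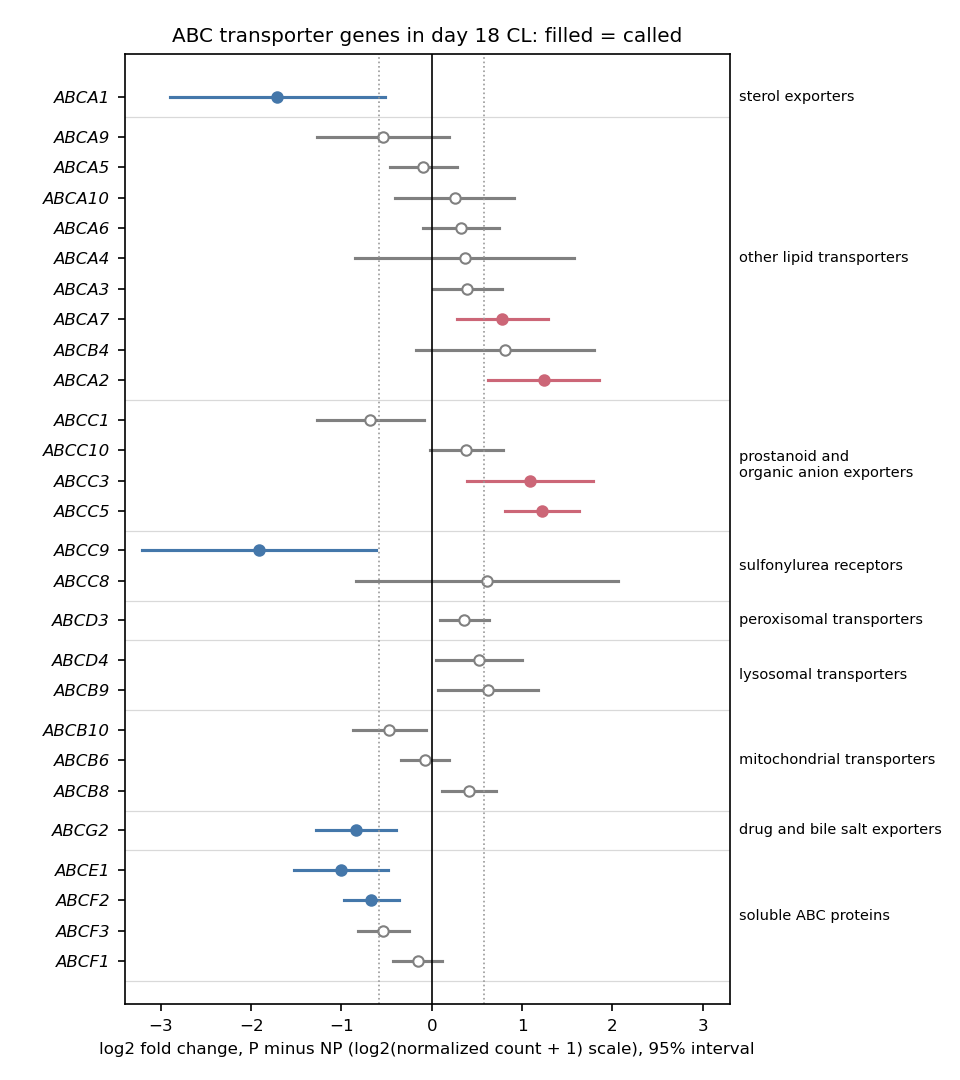
Log2 fold change of 27 tested ABC genes (x axis, P minus NP on the log2(normalized count + 1) scale, with its 95% interval from limma), by transporter group, with filled points for the 9 called genes. ABCA2, ABCA7, ABCC3 and ABCC5 lie to the right, ABCA1, ABCC9, ABCE1, ABCF2 and ABCG2 to the left, and dotted lines mark the fold minimum of 0.58.

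Cholesterol and phospholipid exporters of subfamily A split in direction. ABCA1 (ENSBTAG00000020661), which loads cholesterol and phospholipid onto apolipoprotein A-I, fell, and its mean in P was 23.6% of that in NP, or 38.5% without NP cow 05. The NP cows had 417 (cow 05), 221 (cow 22), 75.1 (cow 31), 47.2 (cow 30), 46.1 (cow 32) and 45.96 (cow 42) normalized counts. The P cows had 70.04 (cow 19), 44.5 (cow 27), 34.2 (cow 01), 22.6 (cow 18), 18.95 (cow 29) and 10.5 (cow 28). Thus 5 of the 6 P cows lay below every NP cow, while P cow 19 lay among them, and NP cows 05 and 22 stood far above the other 4.

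For ABCA1 the means were 142 ± 151 in NP and 33.5 ± 21.5 in P (SD, n = 6 each), with a log2 fold change of -1.71 (SE 0.56, 95% interval -2.90 to -0.51, adjusted p = 0.0287). Leaving out any 1 of NP cows 05 or 22 or P cows 18, 28 or 29 moved the adjusted p past 0.05 (up to 0.0726, with log2 fold changes of -1.28 to -1.65), as did limma-voom (0.136) and thinning to equal depth (0.0551), and without P cows 01, 18 and 28 together the log2 fold change was -1.25 (adjusted p = 0.231). The lowest P value rested on 4 reads.

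Macrophages also make ABCA1, and the summed macrophage markers ranged from 287 to 985 normalized counts in NP and 463 to 763 in P. Limma called none of the 5 tested (1 higher and 1 lower at an unadjusted p under 0.05, 1 lower by DESeq2). It called 12% of all tested genes higher and 14.8% lower. In whole tissue, fewer cells of a type and less RNA per cell cannot be told apart. ABCG1, the partner exporter that loads mature lipoproteins, stayed below the filter, with a mean of 3.18 normalized counts in NP and 1.54 in P and at most 14 reads in any cow. The sterol exporters ABCG4, ABCG5 and ABCG8 were not analysed here.

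Of 22 further cholesterol genes, all of them tested, 2 rose (LCAT and PLTP) and 4 fell (LPCAT3, LIPA, SOAT1 and CYP27A1). Among all tested genes 12% rose and 14.8% fell. The median log2 fold change of the 22 was -0.24 beside -0.01 for all genes. SOAT1, which esterifies cholesterol for storage in droplets, ran from 314 to 863 normalized counts in NP and from 92.5 to 253 in P. These ranges did not overlap, and the log2 fold change was -1.50 (adjusted p = 0.00182). LPCAT3, a phospholipid-remodelling enzyme, fell by 0.84 on the log2 scale (adjusted p = 0.0113). LCAT, which esterifies the cholesterol of lipoproteins, rose by 1.10 (adjusted p = 0.0075), and RXRA, the obligate partner of the liver X receptors, had a log2 fold change of 0.52 (adjusted p = 0.0153), under the fold minimum but above it without NP cow 32 (0.63) or P cow 27 (0.59). In P cows 19, 27 and 29 alone against NP, 2 genes of this list were called, both lower. Of all genes tested in that setting 12.2% were called, and 65.7% of those calls were lower.

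ABCA2 (ENSBTAG00000047254), a transporter of late endosomes and lysosomes linked to sphingolipid and cholesterol handling, rose, and its mean in P was 2.49 times that in NP. The lowest, median and highest values were 163, 225 and 368 normalized counts in NP and 211, 644 and 835 in P. All P cows except cow 19, at 211, lay above every NP cow. The means were 232.5 ± 71.8 and 579.7 ± 223 (SD, n = 6 each), with a log2 fold change of 1.24 (SE 0.29, adjusted p = 0.00533). The highest 3 values came from P cows 18, 01 and 28, the libraries of fewest reads, and without them the log2 fold change was 0.77 (adjusted p = 0.112).

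ABCA7 (ENSBTAG00000020766), a close relative of ABCA1 that exports phospholipid and takes part in phagocytosis, rose where ABCA1 fell. Its lowest, median and highest values were 153, 228 and 401 normalized counts in NP and 274, 409 and 612 in P. The groups overlapped, with 3 P cows (28, 27 and 19) above every NP cow. From 253.8 ± 92.9 in NP the mean went to 428.6 ± 124 in P (SD, n = 6 each), a log2 fold change of 0.78 (SE 0.24, adjusted p = 0.0202). In P cows 19, 27 and 29 alone it was as large, at 0.83, with an adjusted p of 0.0619.

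The other 7 tested lipid transporters were not called. ABCA3, which fills the lamellar bodies of lung epithelium with surfactant lipid, had a log2 fold change of 0.39 (adjusted p = 0.101), and 4 of 6 P cows lay above every NP cow. ABCA5, ABCA6 and ABCA10, which neighbour each other in the genome, and their relative ABCA9 had log2 fold changes of -0.09, 0.32, 0.25 and -0.54. ABCB4, the phosphatidylcholine exporter of bile, had a mean of 14.9 normalized counts in NP and 27.4 in P, with a log2 fold change of 0.81 (adjusted p = 0.179). It passed the test without P cow 18 (1.17, adjusted p = 0.0322), whose value rested on 3 reads. P cow 28 alone reached the filter (47.05 normalized counts), so ABCB4 was not tested without that cow. ABCA4, the retinoid transporter of photoreceptors, was close to the filter at 2.51 to 37.5 normalized counts.

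**Figure D2:**
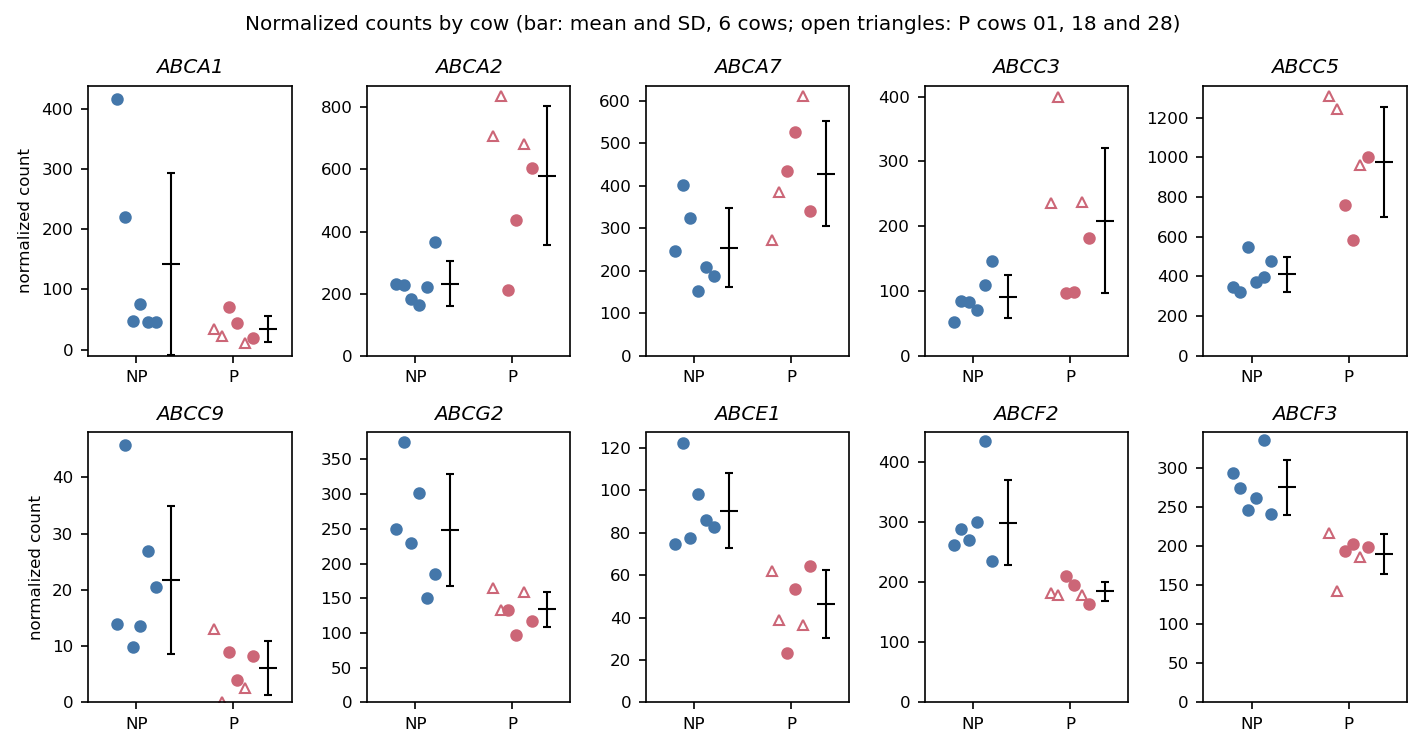
Normalized counts (y axis) of the 9 called ABC genes and ABCF3 in each of 6 NP (blue) and 6 P (red) cows, with a bar for mean and SD and open triangles for P cows 01, 18 and 28. The groups did not overlap for ABCC5, ABCE1, ABCF2 and ABCF3, and NP cows 05 and 22 set the NP mean of ABCA1.

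Among the exporters of prostanoids and other organic anions, ABCC5 (ENSBTAG00000017666), which exports cyclic nucleotides and other anions, rose in every P cow. Its lowest, median and highest values were 320.3, 384 and 548 normalized counts in NP and 586, 981 and 1309.5 in P. Every P cow lay above every NP cow, with P cow 27 the lowest of its group and P cows 01 and 18 the highest. The means were 410.1 ± 86 in NP and 976.7 ± 276 in P (SD, n = 6 each), with a log2 fold change of 1.22 (SE 0.19, 95% interval 0.81 to 1.63, adjusted p = 0.00108). It was 0.92 without P cows 01, 18 and 28 (adjusted p = 0.0178), and with the log2 library total in the model it was 0.94 (adjusted p = 0.0343). ABCC5 kept its call in each of the 25 alternative settings.

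ABCC3 (ENSBTAG00000020070), an exporter of glucuronides and other organic anions, rose, with a mean in P 2.29 times that in NP. Normalized counts were 399, 238 and 236 in P cows 18, 28 and 01, and 182, 98.95 and 97.6 in P cows 29, 27 and 19. In NP they ran from 52.1 to 147, with a median of 84.3. P cows 19 and 27 thus lay within the NP range, and the other 4 above it. The means were 91.2 ± 33.1 and 208.6 ± 112 (SD, n = 6 each), with a log2 fold change of 1.08 (SE 0.33, adjusted p = 0.0199). In P cows 19, 27 and 29 alone it was 0.48 (adjusted p = 0.30).

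ABCC1, which exports glutathione conjugates such as leukotriene C4, was not called. Its mean was 97.3 ± 35.5 normalized counts in NP and 60.9 ± 23.2 in P (SD, n = 6 each), and 3 P cows lay below every NP cow. The log2 fold change was -0.68 (95% interval -1.27 to -0.09, adjusted p = 0.0686). DESeq2 on the recovered reads called it (adjusted p = 0.0449), as did limma without NP cow 30 or without P cow 28. ABCC10, another exporter of conjugates, had a log2 fold change of 0.38 (adjusted p = 0.128), and ABCC6, known from hepatocytes, stayed below the filter with at most 15 reads. ABCC4, the exporter best known for prostaglandins, was not analysed here, nor were ABCC2, ABCC11 and ABCC12.

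Of 20 tested genes of prostanoid synthesis, uptake, breakdown and reception, 2 rose (CBR3 and HPGD) and 4 fell (SLCO3A1, CBR4, PTGFR and PTGFRN). Among all tested genes 12% rose and 14.8% fell, and the median log2 fold change of the 20 was -0.04. PTGFR, the receptor through which prostaglandin F2A brings about luteolysis, ran from 1953 to 7280.3 normalized counts in NP and from 528 to 2256 in P. The groups overlapped through NP cow 32, the lowest of its group, which lay below P cows 19 and 27, and the log2 fold change was -1.79 (adjusted p = 0.00193). PTGFRN, a membrane protein described as a negative regulator of this receptor, fell by 1.85 on the log2 scale (adjusted p = 0.0011). SLCO3A1, a carrier for prostaglandins, fell by 1.15 (adjusted p = 0.00595), and CBR4, a carbonyl reductase, by 0.95 (adjusted p = 0.00889). SLCO3A1 passed the filter through NP cows alone (highest 58.3 normalized counts, against 25.3 in P). Its entry into the test thus depended on the group found higher, and its fewest reads in P were 6. With P cows 01, 18 and 28 left out, 2 of the 20 were called, both lower, against 12.2% of all genes tested in that setting. The study drew ABCC3, ABCC9 and the called genes of this list in a prostaglandin heat map chosen on these same cows, so their direction here is not independent evidence.

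The sulfonylurea receptors ABCC8 and ABCC9 move no substrate themselves but regulate potassium channels that open when ATP is low. ABCC9 (ENSBTAG00000019294), the form of muscle and blood vessels, fell. The NP cows ran from 9.89 to 45.7 normalized counts with a median of 17.3. In P the values were 13.03 (cow 01), 8.94 (cow 19), 8.24 (cow 29), 3.96 (cow 27), 2.61 (cow 28) and 0 (cow 18), where 0 reads allow up to 6.17 normalized counts (3 reads, counting error only). All P cows but cow 01 lay below every NP cow.

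The mean of ABCC9 was 21.8 ± 13.2 in NP and 6.13 ± 4.79 in P (SD, n = 6 each), with a log2 fold change of -1.92 (SE 0.61, adjusted p = 0.0252). No cow had more than 72 reads. ABCC9 passed the filter through NP cow 22 alone (45.7 normalized counts, next highest 26.8), so it was not tested without that cow. The call was lost without NP cow 32 (adjusted p = 0.0511) and with limma-voom (-1.38, adjusted p = 0.0689). It was also lost without P cows 01, 18 and 28 (-1.39, adjusted p = 0.0791). Some markers of vessels moved beside it. Of 8 endothelial genes, PECAM1 and CDH5 fell by 2.56 and 1.19 on the log2 scale and 6 were not called. Of 8 mural genes, PDGFRB and MCAM fell, MYH11, CNN1 and DES rose, and 3 were not called. The shares over all tested genes were 14.8% fallen and 12% risen. The summed endothelial markers ran from 5263 to 9274 normalized counts in NP and from 3534 to 8479 in P. The mural ones ran from 5278 to 12630 in NP and from 5769 to 13790 in P. Both sums overlapped between the groups, and the part of these cells in the fall of ABCC9 was not tested.

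KCNJ8, the channel pore that pairs with ABCC9 in vessels, went the other way, at 197 ± 33.8 normalized counts in NP and 309 ± 92.6 in P (SD, n = 6 each). Its log2 fold change of 0.61 (adjusted p = 0.0218) lay close to the fold minimum, and the call was lost in 10 of 25 alternative settings, among them leaving out NP cow 22 or 30 or P cow 18, 28 or 29 (0.49 to 0.58) and leaving out P cows 01, 18 and 28 (0.52, adjusted p = 0.0669). ABCC8, the form of pancreatic beta cells, was not called (log2 fold change 0.61, adjusted p = 0.498). DESeq2 on the recovered reads called it (1.55, adjusted p = 0.0376), while edgeR gave 1.53 (adjusted p = 0.0754). ABCC8 reached the filter of 30 in P cow 01 alone. It read 5.44 to 12.3 normalized counts in NP and 2.06 to 81.4 in P, with P cow 01 highest and P cows 18 and 28 below every NP cow. KCNJ11, its pore partner, stayed below the filter.

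Of the peroxisomal transporters, ABCD3, the abundant peroxisomal membrane transporter for branched and dicarboxylic acyl-CoA, ran from 208 to 341 normalized counts in NP and from 297 to 371 in P. NP cow 22, at 341, was the sole NP cow inside the P range, and the other 5 lay below every P cow. The means were 256.8 ± 44.8 and 327.6 ± 25.5 (SD, n = 6 each). Its adjusted p of 0.0376 passed the threshold, but the log2 fold change of 0.36 (95% interval 0.09 to 0.63) was under the fold minimum, so it was not called. With each cow left out in turn, limma gave ABCD3 an adjusted p from 0.0132 to 0.0857. Without P cows 01, 18 and 28 it was 0.202. ABCD2 was not analysed here.

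Of 24 tested peroxisome assembly and fatty acid oxidation genes, 2 rose (PEX10 and ACAA1) and 6 fell (PEX3, PEX13, PEX26, CAT, PHYH and CRAT). Among all tested genes 12% rose and 14.8% fell, and the median log2 fold change of the 24 was -0.09. PEX13, a docking protein for matrix import, fell from 57.6 to 18.8 normalized counts (log2 fold change -1.63, adjusted p = 0.00124). PEX10, a ubiquitin ligase of the import machinery, rose by 1.11 (adjusted p = 0.0017). CRAT, which moves acyl groups to carnitine, fell by 1.03 (adjusted p = 0.0017), and PHYH, the first enzyme of phytanic acid breakdown, fell by 0.66 (adjusted p = 0.00748), or by 0.54, under the fold minimum, without P cow 01. With P cows 01, 18 and 28 left out, 1 gene of the list was called higher and 3 lower. In that setting 12.2% of all genes were called.

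The lysosomal transporters ABCD4, which serves cobalamin release, and ABCB9, which carries peptides, had log2 fold changes of 0.52 (adjusted p = 0.0828) and 0.62 (adjusted p = 0.0749), and neither was called. ABCB9 was low, at 10.9 to 26.6 normalized counts in NP and 23.5 to 34.96 in P, with 4 P cows above every NP cow. ABCD4 ran from 179.5 to 353 in NP and from 240.5 to 631 in P, with 3 P cows above every NP cow, and it was called without P cow 28 (0.65, adjusted p = 0.0394).

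Of the mitochondrial transporters, ABCB8, linked to mitochondrial iron export, ran from 382 to 583 normalized counts in NP and from 476 to 808 in P, with 5 P cows above every NP cow. Its log2 fold change was 0.41 (adjusted p = 0.0345), under the fold minimum. With each cow left out in turn, limma gave ABCB8 an adjusted p from 0.0129 to 0.0783. Without P cows 01, 18 and 28 it was 0.054. ABCB10, needed for heme synthesis in red cell precursors, ran from 87.5 to 130.01 in NP and from 54.9 to 109 in P.

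For ABCB10, 5 P cows lay below every NP cow, and the exception was P cow 01. The log2 fold change was -0.47 (adjusted p = 0.0665), and without P cow 01 it was -0.60 and called (adjusted p = 0.0173). ABCB6, a porphyrin transporter, had a log2 fold change of -0.07 (95% interval -0.34 to 0.20).

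Of 26 tested heme and iron-sulfur genes, 3 fell, against 14.8% of all tested genes, and the median log2 fold change was -0.03. Limma, edgeR with TMM factors and DESeq2 called 0 higher (2 at an unadjusted p under 0.05), against 12% of all genes by limma. Those that fell were CPOX, a late enzyme of heme synthesis (-2.48, adjusted p = 0.00551, and -1.83 with a pseudocount of 5), HSPA9, the mitochondrial chaperone that takes part in cluster transfer (-0.92, adjusted p = 0.00307), and GLRX5, a glutaredoxin of the same route (-1.23, adjusted p = 0.00534). ALAD, an early heme enzyme, had a log2 fold change of 0.56 (adjusted p = 0.0106), just under the fold minimum, and past it in edgeR with relative log expression factors (0.58), after thinning (0.66) and without NP cow 32 or P cow 19, 27 or 28 (0.58 to 0.62). With P cows 01, 18 and 28 left out, 1 gene of the list was called, CPOX, against 12.2% of all genes tested in that setting. CPOX had 0 reads in P cow 28, which allow up to 7.84 normalized counts (3 reads), and at most 12.9 in the other P cows. CPOX passed the filter through NP cows alone (highest 75.5), so its entry into the test depended on the group found higher.

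ABCG2 (ENSBTAG00000017704), which exports urate, sulfated steroids, porphyrins and many drugs, fell, and its mean in P was 54% of that in NP. The lowest, median and highest values were 149.96, 239.6 and 375 normalized counts in NP and 96.97, 133 and 165 in P. NP cow 32 lay within the P range, the other 5 NP cows lay above all P cows, and 4 P cows lay below all NP cows. The means were 248.4 ± 80.9 and 134 ± 25.5 (SD, n = 6 each), with a log2 fold change of -0.84 (SE 0.21, adjusted p = 0.00734). The log2 fold change was -1.05 without P cows 01, 18 and 28 (adjusted p = 0.0242), and with the log2 library total in the model it was -0.94 and not called (adjusted p = 0.0555). ABCG2 is also made by endothelial cells. Of their 8 markers, PECAM1 and CDH5 fell as given beside ABCC9, and 6 were not called, where 14.8% of all tested genes fell. The part of these cells in the fall of ABCG2 was not tested. The related drug and bile salt exporters ABCB1, ABCB5 and ABCB11 were not analysed here.

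The soluble ABC proteins of translation all had negative log2 fold changes, and 2 of the 4 fell. ABCE1 (ENSBTAG00000019854), which splits ribosomes into subunits after termination, ran from 74.7 to 122 normalized counts in NP (median 84.6) and from 23.1 to 64.3 in P (median 46.3). Every P cow lay below every NP cow, and P cow 19 was the lowest. The means were 90.4 ± 17.7 and 46.4 ± 16.1 (SD, n = 6 each), with a log2 fold change of -1.01 (SE 0.24, adjusted p = 0.00661). It was -1.03 without P cows 01, 18 and 28 (adjusted p = 0.0387), and with the log2 library total in the model it was -1.002 and not called (adjusted p = 0.0743).

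ABCF2 (ENSBTAG00000000607), a ribosome-associated ATPase, ran from 236 to 435 normalized counts in NP (median 279) and from 163 to 209 in P (median 181). The groups did not overlap, the P cows lay close together, and NP cow 32 stood above the other NP cows. The means were 298.4 ± 70.4 and 184.4 ± 15.9 (SD, n = 6 each), with a log2 fold change of -0.67 (SE 0.15, adjusted p = 0.00396). Without NP cow 32 it was -0.55, under the fold minimum, at an adjusted p of 0.00582, and without P cows 01, 18 and 28 it was -0.63 (adjusted p = 0.0423). With the log2 library total in the model it was -0.62 and not called (adjusted p = 0.063).

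ABCF3, the relative of yeast GCN20, ran from 241 to 335 normalized counts in NP and from 142 to 217 in P, again without overlap. Its log2 fold change of -0.54 (SE 0.13, adjusted p = 0.00765) was under the fold minimum, so it was not called. ABCF1, which binds initiation factor eIF2, overlapped between the groups, at 467 to 677 and 379.98 to 572, with a log2 fold change of -0.16 (95% interval -0.43 to 0.12, adjusted p = 0.357).

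Of 9 tested partners in ribosome recycling, rescue and the amino acid response, 1 fell, against 14.8% of all tested genes. Limma called 0 higher (3 at an unadjusted p under 0.05, 1 by edgeR and by DESeq2), against 12% of all genes. The median log2 fold change of the 9 was 0.07. ETF1, the release factor that recruits ABCE1 at stop codons, ran from 256 to 399 normalized counts in NP and from 166 to 239 in P. These ranges did not overlap, and the log2 fold change was -0.67 (adjusted p = 0.00316). HBS1L and EIF2D, factors of ribosome rescue and recycling, had log2 fold changes of 0.51 and 0.39, under the fold minimum, and EIF2AK4, the kinase that senses uncharged tRNA, had 1.03 (adjusted p = 0.0819). EIF2AK4 was called by edgeR (adjusted p = 0.0352) and DESeq2 (adjusted p = 0.0299), and by limma without P cow 01 (1.34), P cow 18 (1.29) or all of P cows 01, 18 and 28 (1.79, adjusted p = 0.0139).

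**Figure D3:**
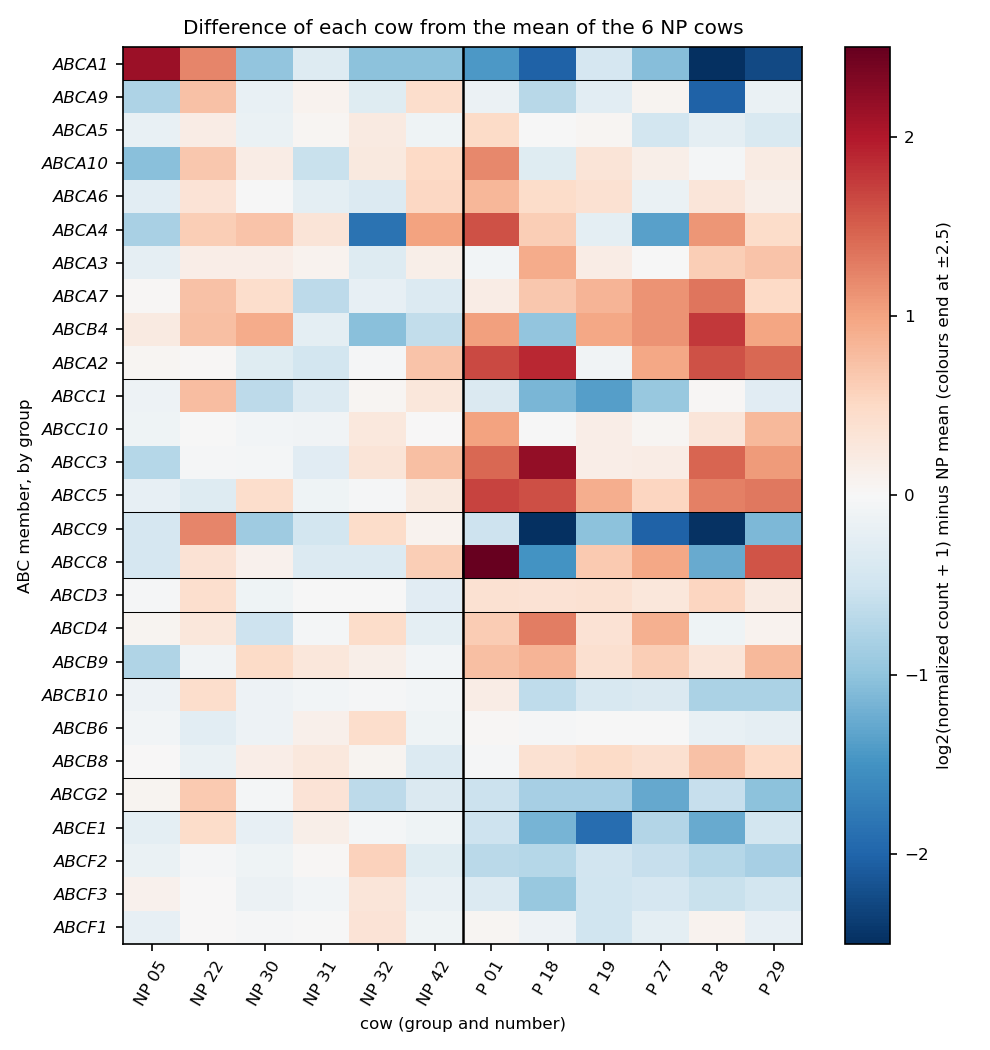
The same 27 ABC genes (rows, by transporter group) in each cow (columns), coloured by log2(normalized count + 1) minus the mean of the 6 NP cows, with colours ending at 2.5 either way. P cows 01, 18 and 28 have the darkest red for ABCA2 and ABCC3, whereas ABCG2 and the soluble proteins ABCE1, ABCF2 and ABCF3 are blue in all 6 P cows.

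The P cows were not alike in how far these genes moved. For each cow the difference from the NP mean on the log2 scale was taken as the median over the 4 risen members. It was 1.54, 1.76 and 1.40 in P cows 01, 18 and 28, and 0.51, 0.75 and 1.19 in P cows 19, 27 and 29. Over the 5 fallen members it was -0.53, -1.17 and -1.26 in the first 3 cows and -0.84, -1.07 and -1.02 in the others. The 3 shallow libraries therefore stood highest for the risen genes but enclosed the others for the fallen ones. These medians are over genes called on the same cows and carry no test.

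Without P cows 01, 18 and 28, 26 members could be tested (ABCA4, ABCB4 and ABCC8 fell below the filter), 4 of the 9 calls were kept (ABCC5, ABCE1, ABCF2 and ABCG2) and none was added. The calls lost were ABCA1, ABCA2, ABCA7, ABCC3 and ABCC9. With the log2 library total in the model, ABCC5 was called and the other 8 had adjusted p from 0.0555 (ABCG2) to 0.446 (ABCC3). Of the named partners called in the full comparison, SOAT1, PTGFRN, PEX13 and ETF1 were then called and the others were not. Over all tested genes 510 of 11907 were called with the library total in the model (4.28%), among them 489 of the 3197 called in the full comparison. Without P cows 01, 18 and 28, 1410 of 11514 were called (12.2%), among them 1303 of those 3197. Read depth and pregnancy status cannot be told apart for these cows, since no NP library was as shallow.

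**Figure D4:**
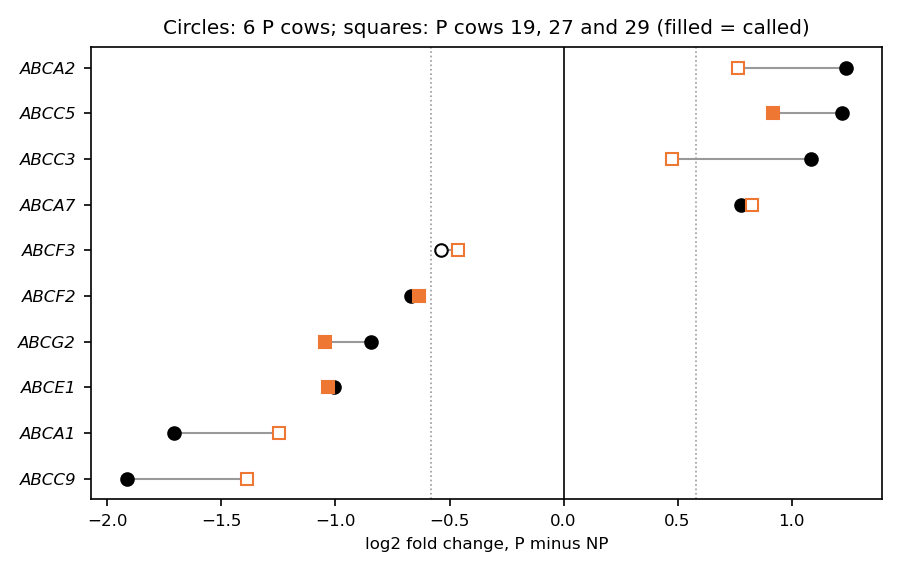
Log2 fold change (x axis, P minus NP) of the called ABC genes and ABCF3 with all 6 P cows (circles) and with P cows 19, 27 and 29 only (squares), filled where called. ABCC5, ABCE1, ABCF2 and ABCG2 stay filled, whereas ABCC3 moves from 1.08 to 0.48.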

How the data were processed

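Poly-A RNA of 12 CL was read as single-end reads. Per the study's methods and the submitters' processing notes, the authors removed adapters and poly-A stretches with cutadapt, aligned to ARS-UCD1.2 by STAR version 2.4.2a, counted per Ensembl gene with HTSeq and compared groups with DESeq2. The deposited signal values are those counts divided by the size factor of each library, with 2 decimals kept. Columns with the authors' fold changes and p-values were not used, and 0 value columns lacked a matching cow. Strand use in counting is not given in the sources used here, so reads of overlapping or antisense genes cannot be told apart, and reads of near-identical relatives may be shared. Levels were not compared between genes, since lengths were not used.

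Whole reads were recovered in each library (at least 99.987% of values whole within 0.0051). A gene entered the fit if any cow reached 30, which left 11907 genes, and log2(value + 1) was fitted by limma 3.58.1 (R 4.3.3, variance trend), and p was adjusted by Benjamini-Hochberg over all of them. The self-test on simulated libraries ran before the fit. Alternatives were edgeR 4.0.16 (TMM and relative log expression factors), DESeq2 1.42.0 and limma-voom on recovered reads, pseudocounts of 0.5 and 5, other filters and fold minimums, leaving out each cow, leaving out P cows 01, 18 and 28, the log2 library total as a covariate, and thinning to 2038858 reads.

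Members, lists and alternatives were chosen with earlier results of these data known. Named were every called member, all tested sterol, organic anion, sulfonylurea receptor and peroxisomal members, and up to 4 genes of smallest p in each other group or partner list, and members named outside this rule were chosen after their values were seen. Which genes neighbour each other was read from the RefSeq annotation of the NIAB-ARS Tharparkar assembly, in which 29 of 31 members were found by symbol. Member genes without a row were not analysed here. A few genes that entered the fit are left out of the text and figures.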

Additional observations from a re-analysis of the deposited data

Results flagged for a closer look

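In 86 groups of 6 cows (43 named genes in 2 groups), 11 had a highest cow that stood apart from the rest by Dixon's gap test, where chance gives about 1 in 20 groups. NP cow 32 stood apart for ABCF2 (435 normalized counts against 236 to 300.4 in the other NP cows), ABCF1 (676.9 against 467 to 541), ABCC10 (89.6 against 69.2 to 74.7) and RXRA (746 against 426 to 507). NP cow 22 did so for ABCB10 (130.01 against 87.5 to 94.7), ABCD3 (341 against 208 to 254) and PTGFRN (735 against 276 to 392), and NP cow 42 for ABCA2 (368 against 163 to 232). In P, cow 01 stood apart for ABCC8 (81.4 against 2.06 to 24.7) and ABCB10 (109 against 54.9 to 74.2), and cow 19 for SLCO3A1 (25.3 against 13.9 to 17.3).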

How the results depend on the processing

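No paired analysis was possible because cow numbers are not shared between the groups. The count of members that fell, 5, became 3 with limma-voom, 3 at a fold minimum of 1, 3 without P cows 01, 18 and 28, and 0 once the log2 library total entered the model as a covariate, and ranged from 3 (without NP cow 22 or NP cow 32) to 6 when each cow was left out. The count that rose, 4, became 1 without these 3 cows and 1 with the covariate. With the covariate, 4 members rose and 6 fell at an unadjusted p under 0.05, and the smallest adjusted p was 0.0343 (ABCC5). Over all genes, 3197 calls became 1471 at a fold minimum of 1, 1410 without the 3 cows and 510 with the covariate. Both directions kept their counts within 1.5 times under edgeR (4 rose, 5 fell), DESeq2 (5 and 6), no fold minimum (6 and 6) and thinning (4 and 4). Across 1064 alternative values of 43 named genes, 59 lost the call, 29 gained it, the others bar 1 kept direction and side of the threshold, and 1 changed sign, the uncalled ABCB6 without NP cow 32 (0.016, with leave-one-out values from -0.12). The cause of these shifts was not tested. Depth limits ABCC9, ABCC8, ABCB4, ABCA4 and P values of ABCA1 and CPOX, which rest on few reads.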
